A study of Glycine max with 12 samples.

Results

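Seeds of the transgenic soybean event e15 were compared with null seeds. The members were chosen by label: the 3 libraries titled UBQ_15A_HOM, with the treatment label e15, against the 6 titled UBQ_33A_NULL, together 9 of the 12 libraries of the series, with every gene that passed a filter on low counts. That filter left 32115 of the 52872 genes in the table. All libraries are polyadenylated RNA of developing seed of genotype 93Y21, taken 35 days after flowering. The e15 line carries a construct with the GmUBQ promoter, and the series title concerns ectopic expression of a deletion variant of GmCGS2. The other event of that construct, e19 (3 libraries titled UBQ_19A_HOM), served as the second reference, so that a difference from the nulls could be set beside a difference from another event. The sources used here do not state how the nulls relate to line 15A. Event e15 is 1 line, so an effect of the construct and any other trait of that line cannot be told apart.

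Cystathionine gamma-synthase joins an activated form of homoserine with cysteine and thereby opens the plant pathway to methionine. In Arabidopsis its messenger RNA is destabilised when the methionine product S-adenosylmethionine is abundant, through a stretch near the start of the coding region. A soybean seed in the filling phase stores protein and oil in its cotyledons, and its main storage globulins are poor in the sulfur amino acids methionine and cysteine.

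The deposited table identifies genes by Glyma identifiers, and 0 of them matched a gene name in the RefSeq table used here. Well-known seed genes (storage globulins, protease inhibitors, lectin, oleosins) were therefore not picked out by name. The tissue label was not checked against seed markers, nor the level of the targeted synthase against the event labels. No sequence is shown for the same reason. The identifiers do carry the chromosome and the order of genes along it, and those were used. They are identifiers of a reference genome, and the presence and order of these genes in the genotype of the seeds were not checked. At most 2 risen and 2 fallen genes are given by identifier, and others by chromosome and rank.

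The e15 libraries held 21988821 to 22849075 counts and the nulls 21357512 to 23276877. Within e15 the median SD of a gene's log2 level was 0.141, against 0.113 in nulls 1 to 3, 0.131 in nulls 4 to 6 and 0.166 over all 6 nulls. The nulls thus differed more between these sets of replicate numbers than within them, and 3079 genes (9.59% of those tested) differed between the sets. This difference is part of the spread against which e15 was tested. The main counts and the genes given by identifier are therefore also given against each set.

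In e15 seed 83 genes were higher and 159 lower than in the nulls (edgeR's quasi-likelihood test, adjusted p under 0.05). These 242 genes were 0.754% of the genes tested, 0.258% risen and 0.495% fallen. With the null sets as separate groups, 376 genes (1.17%) were called against nulls 4 to 6, 2676 (8.33%) against nulls 1 to 3 and 888 against the mean of the sets. With replicate numbers as a block, which also sets e15 against nulls 1 to 3 alone, the count was 2350. Taken over all levels of abundance, the rises were the larger changes, with a median log2 change of 0.96 (quartiles 0.59 and 1.69). The median fall was -0.56 (quartiles of its size 0.44 and 0.96). This order did not hold at every level, as given below. In bulk seed, a lower level from fewer cells of a type and one from less RNA per cell cannot be told apart. Over all tested genes the median log2 change was -0.00 and the median size of a change 0.10. A change of at least 2-fold was found for 39 risen and 39 fallen genes. These numbers were 52 and 82 against nulls 4 to 6, and 199 and 277 against nulls 1 to 3.

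In the fit to all nulls the excess of falls lay among small changes. Under 1.5-fold, 83 genes fell and 21 rose. From 1.5- to 2-fold, 37 fell and 23 rose, and from 2- to 4-fold 24 fell and 21 rose. At 4-fold and over, 18 rose and 15 fell. This does not hold in every fit, since from 2-fold upward falls also outnumbered rises against either null set and with library totals alone (31 rose and 43 fell). Without e15 replicate 3, 31 rose and 21 fell from 2-fold upward. Without that library, 41 genes rose and 41 fell at any size, and 80 of the 242 genes were called again with the same sign. Without e15 replicate 1 that number was 103 and without replicate 2 it was 115. In all 9 fits that left out 1 library of e15 or the nulls and against each null set, 70 of the 242 genes were called with the same sign. These 70 genes, 36 risen and 34 fallen, had a median change of 1.39 on the log2 scale regardless of sign, against 0.55 for the other 172. A larger change is more easily called again, so the way the 70 were picked draws these medians apart.

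Where a gene stands in abundance went with the kind of change found, as the plot of change by level shows. Levels are in CPM (counts scaled to a common library size), without correction for gene length. Among the 4482 tested genes with a mean under 1 CPM, 22 were called (0.491%), with a median size of change of 3.23 on the log2 scale. The smallest change called in that class was 1.23. Between 20 and 100 CPM, 53 of 5185 genes were called (1.02%), 44 of them fallen, and their median size was 0.42. The median standard error of a log2 change was 0.353 in the first of these classes and 0.0715 in the second, so a 1.5-fold change could be called among the abundant genes but was not called below 1 CPM. By direction, the median rise and fall were 1.93 and -3.53 under 1 CPM, and 0.43 and -0.40 from 20 to 100 CPM. They were 1.24 and -1.005 from 1 to 5 CPM, and 0.64 and -0.53 from 5 to 20 CPM. From 100 to 1000 CPM, 15 genes fell and 2 rose among 651 tested. Above 1000 CPM, 3 of 54 genes were called, and all 3 rose.

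**Figure D1:**
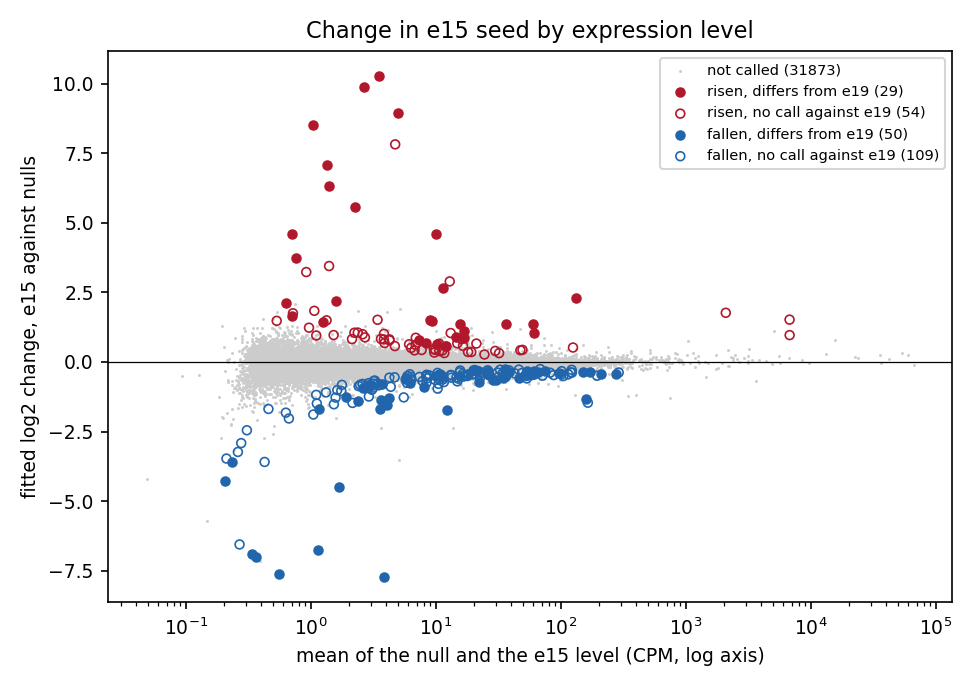
Each point is a tested gene, with its mean level in CPM on a log axis and its fitted log2 change in e15 against the nulls. Filled symbols are called genes that also differed from e19 (29 risen, 50 fallen), open symbols are the other called genes (54 and 109), and the 3 open symbols above 1000 CPM all lie above 0. Fitted values of genes with no counts in a group depend on the prior count.

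The 3 most abundant risen genes made up most of the added messenger RNA. Summed over all 83 risen genes, the level was 8584 CPM in the lowest null, 9857 CPM at the median and 10634 CPM in the highest. The e15 libraries stood at 24562, 23928 and 22304 CPM. The 3 genes alone accounted for 7883 to 9890 CPM in the nulls and for 23178, 22457 and 20867 CPM in e15. They took 0.885% to 0.966% of all counts in the nulls and 2.10% to 2.22% in e15. The other 80 risen genes together went from 725 ± 25.6 CPM (SD, n = 6) to 1431 ± 43.6 CPM (SD, n = 3). The 159 fallen genes together went from 5782 ± 150 CPM to 4082 ± 152 CPM, with 4096, 4227 and 3924 CPM in the e15 libraries. The summed genes were called for their difference in these same libraries. That the e15 sums lie above or below all nulls follows from that choice, so the sums are a description.

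The most abundant of the risen genes was Glyma.16G208900, on chromosome 16. Its level was 4282, 4401 and 4256 CPM in nulls 1 to 3 and 4859, 4848 and 4829 CPM in nulls 4 to 6. In e15 it was 9271, 9288 and 8255 CPM. Every e15 library lay above every null, which the rule for giving a gene by identifier required. The fitted rise on the log2 scale was 0.96 ± 0.10 (SE, n = 3 and 6, edgeR's adjusted p = 1.97e-06), and it came to 1.05 with nulls 1 to 3 and 0.88 with nulls 4 to 6 as the reference. In e19 the levels were 10131, 9751 and 7400 CPM, and e15 minus e19 came to -0.02 in log2 units (95% interval -0.26 to 0.21, adjusted p = 0.991).

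The second most abundant risen gene lies on chromosome 9 and the next on chromosome 14, and both were picked after their values were seen. The gene on chromosome 9 stood at 3488 ± 511 CPM in the nulls (SD, n = 6) and at 10502.5, 9993 and 9529 CPM in e15, which is a rise of 1.52 ± 0.13 in log2 units (adjusted p = 1.29e-06). It differed between the null sets (adjusted p = 0.0449), and the rise was 1.72 over the first set and 1.35 over the second. The gene on chromosome 14 stood at 947 ± 131 CPM in the nulls and at 3404, 3176 and 3083 CPM in e15, which is a rise of 1.77 ± 0.13 in log2 units (adjusted p = 1.74e-06). All e15 libraries lay above all nulls for both genes.

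None of these 3 genes was called different between the events. The e15 level was higher than that of e19 by 0.23 on the log2 scale for the gene on chromosome 9 (95% interval -0.09 to 0.56) and by 0.26 for that on chromosome 14 (-0.08 to 0.61). The e19 libraries stood at 10277, 8842 and 6446 CPM for the gene on chromosome 9. For that on chromosome 14 they stood at 3256, 2817 and 1973 CPM. In both genes e19 replicate 3 was the lowest, and e19 replicate 1 lay within the range of e15. Against the same nulls the log2 changes in e19 were 0.99 for the gene on chromosome 16, 1.29 for that on chromosome 9 and 1.5 for that on chromosome 14. Because both events were set against the same nulls, such likeness can come from the nulls as well as from the events. Counts were not whole in all 12 libraries for the genes on chromosomes 9 and 14 and in 5 libraries for Glyma.16G208900, so reads may be shared with near-identical copies.

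The largest fitted rise was that of Glyma.17G173200, on chromosome 17. It had 0 counts in each of the 6 nulls and 165, 137 and 164 counts in the e15 libraries, which is 7.60, 6.5 and 7.12 CPM. The mean of e15, 7.07 ± 0.553 CPM, was at least 54.3-fold higher than the level of 3 counts per null library (0.130 CPM, adjusted p = 1.51e-10). In e19 it had 0, 0 and 2 counts, and the difference between the events passed the test (adjusted p = 2.87e-08). The gene is close to silent in every library but those of e15. It passed the filter on low counts only through the e15 libraries and was picked for its change. Its calls follow largely from that choice and are a description.

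Among the falls the largest fitted change belonged to Glyma.06G273700, on chromosome 6. Its levels in the nulls were 8.59, 7.27, 8.44, 7.22, 7.97 and 6.73 CPM. In the e15 libraries it had 0, 2 and 0 counts. Over all libraries, the null level was 254 times that of e15, and counting error alone allows 70.1 to 2100 times (95%; adjusted p = 7.65e-13). In e19 the levels were 6.90, 9.15 and 7.92 CPM, within or near the range of the nulls, and e15 differed from e19 with an adjusted p of 4.48e-12.

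The most abundant fallen gene, Glyma.11G133600 on chromosome 11, shows the small falls of abundant genes. It stood at 292.5, 302 and 289 CPM in nulls 1 to 3, at 370, 351 and 362 CPM in nulls 4 to 6 and at 254.7, 255.5 and 245.3 CPM in e15. All e15 libraries lay below all nulls, as the rule for giving a gene by identifier required. The distance to nulls 1 to 3 was less than that between the null sets. In log2 units e15 was at -0.38 ± 0.09 relative to all nulls (SE, adjusted p = 0.0398), at -0.23 relative to nulls 1 to 3 and at -0.52 relative to nulls 4 to 6. The call was lost without any 1 of the e15 libraries (adjusted p = 0.184, 0.123 and 0.308) and without null 4, 5 or 6 (0.0666, 0.0603 and 0.0693). The difference from e19 was not called (-0.45 ± 0.10, SE, adjusted p = 0.0545).

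**Figure D2:**
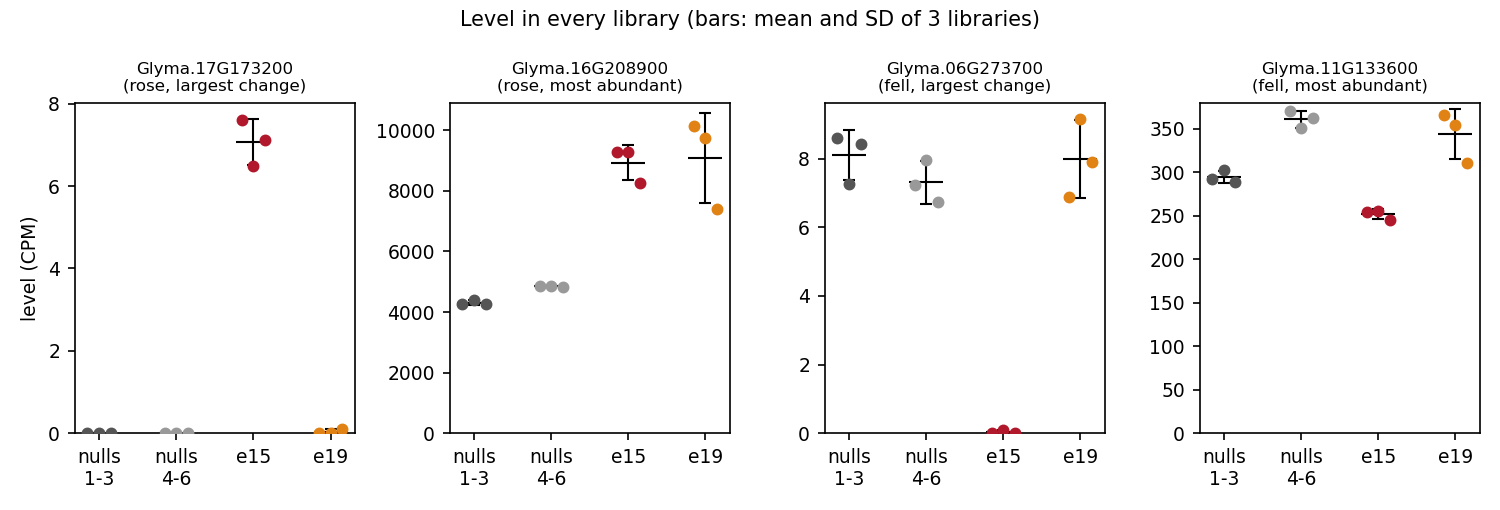
The level in CPM (vertical axis, from 0) of the 4 genes given by identifier is shown for every library, in columns for nulls 1 to 3, nulls 4 to 6, e15 and e19, with the mean and SD of each 3 libraries. Glyma.17G173200 is near 0 except in e15, Glyma.06G273700 is near 0 in e15 alone, Glyma.16G208900 is high in both events, and the null sets of Glyma.11G133600 stand apart.

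Of the less abundant changed genes, a few had levels that left the range of all other libraries by a wide margin, and they were likewise picked after their values were seen. The fourth most abundant risen gene, on chromosome 9, went from 45.1 ± 1.80 CPM in the nulls (SD, n = 6) to 219, 223 and 215 CPM in e15. Its e19 levels of 97.1, 131 and 127 CPM lay between them, and the difference of the events was 0.89 ± 0.09 on the log2 scale (SE, adjusted p = 2.39e-06). A gene on chromosome 8 went from 33.4 ± 2.13 CPM to 83.0, 88.3 and 85.6 CPM, with 36.9, 30.6 and 32.0 CPM in e19. A gene on chromosome 6 fell from 225 ± 17.9 CPM to 85.8, 97.1 and 88.2 CPM, with 224, 248 and 220 CPM in e19. For the genes on chromosomes 8 and 6 the e15 libraries stood alone and the e19 libraries lay within or near the range of the nulls.

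What set e15 apart from the other event was tested directly, as e15 against e19. Of all tested genes 96 (0.299%) differed, 35 higher and 61 lower in e15. Among the 242 called genes, 79 were also higher, or also lower, than in e19: 29 of the 83 risen (34.9%) and 50 of the 159 fallen (31.4%). Both comparisons use the same e15 libraries, so a chance deviation of those enters both. The count of 79 was 48 without e15 replicate 3, and 178, 218 and 230 against nulls 4 to 6, nulls 1 to 3 and the mean of these sets, and that of 96 was 145 in a fit without the nulls and 292 with the block. As reported, the 79 genes make up 82.3% of the genes that differed between the events. The other 17 of the 96 were not called against the nulls. For the remaining 163 of the 242 genes no difference between the events was called, which does not show that the events are alike.

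For the 29 risen genes that differed from e19, the median change in e15 was 1.63 (log2), while the e19 median against the same nulls was -0.06. These genes were picked by their difference from e19, which by itself draws the e19 values away from those of e15, so the e19 medians are a description. The 50 fallen genes that differed had medians of -0.61 in e15 and 0.10 in e19. For the risen genes with no call between the events the medians were 0.79 in e15 and 0.28 in e19, and for such fallen genes -0.55 and -0.15. Summed, the 29 genes went from 219 to 237 CPM in the nulls to 660, 700 and 685 CPM in e15, with 270, 301 and 296 CPM in e19. The 50 fallen genes went from 2143 to 2385 CPM in the nulls to 1570, 1610 and 1560 CPM, with 2408, 2493 and 2282 CPM in e19. By size of change, those that differed from e19 were 22 of the 33 genes changed 4-fold or more (66.7%), 18 of 45 between 2- and 4-fold (40.0%), 13 of 60 between 1.5- and 2-fold (21.7%) and 26 of 104 below (25%). These shares were not tested against each other, and a larger change is easier to call in either comparison.

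**Figure D3:**
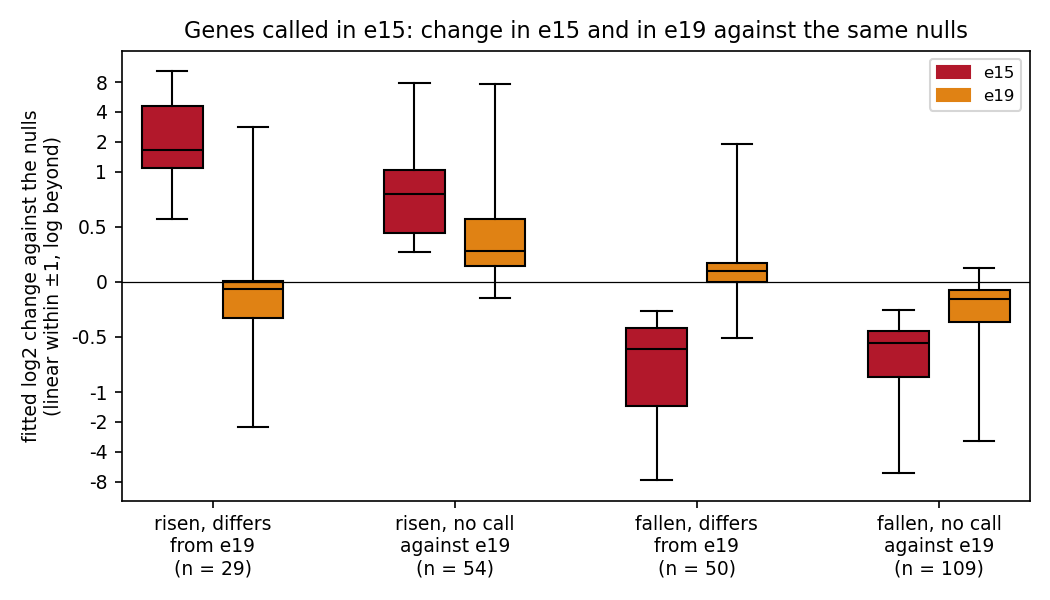
Boxes show the fitted log2 change against the same nulls in e15 and in e19 for the 242 genes called in e15, by direction and by whether e15 also differed from e19. The vertical axis is linear within 1 of 0 and logarithmic beyond, lines mark medians, boxes quartiles and whiskers the whole range. In the genes that differed the medians were 1.63 and -0.61 in e15 and -0.06 and 0.10 in e19, and the choice of these genes by that difference draws the medians apart.

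For 238 of the 242 genes the e15 libraries lay all above or all below the 6 nulls, as did those of 5.16% of all tested genes. For 183 of the 242 they also lay beyond all 3 e19 libraries, as for 2.34% of all tested genes. The sign of the change was the same against either set of nulls in all 242 genes, with risen medians of 1.05 over nulls 1 to 3 and 0.89 over nulls 4 to 6. The fallen medians were -0.66 and -0.51. With the sets as separate groups, 240 of the 242 genes were called against nulls 1 to 3, where 8.33% of all tested genes were. Against nulls 4 to 6, 182 were called, where 1.17% of all tested genes were. The 242 genes were picked by a test on these same libraries. Their counts of non-overlap, sign and repeat calls follow largely from that choice and are a description. The null sets themselves differed in 9 of the 83 risen genes (10.8%) and 40 of the 159 fallen genes (25.2%), where 9.59% of all tested genes did.

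A small group of the called genes was present in e15 and all but absent from the nulls, or the reverse. Among the 242 called genes there were 8, on 6 chromosomes, with 10 or more counts in each e15 library and no more than 3 in any null. Genes that were not called were not searched for these patterns, so no share over all tested genes is given. Their mean level in e15 was 1.36 to 9.91 CPM, and in the nulls at most 0.0517 CPM. For 7 of them e19 also had at most 3 counts per library and differed from e15. These 7 passed the filter on low counts only through the e15 libraries and were picked for their counts there. Their calls, also against e19, follow largely from that choice and are a description. In the other, on chromosome 20, all e19 libraries held at least 10 counts, with 9.41 CPM in e15 and 8.02 CPM in e19. The reverse pattern was found for 6 called genes on 5 chromosomes, with null levels of 0.673 to 7.70 CPM and at most 0.0605 CPM in e15. In 5 of these, e19 held at least 10 counts in every library and differed from e15. In the remaining gene, on chromosome 13, e19 held at most 3 counts. Among these 14 genes 9 had whole counts in every library.

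Called genes were found on all 20 chromosomes at unequal shares. Chromosome 14 had 23 called among 1244 tested genes (1.85%), chromosome 17 had 23 among 1609 (1.43%) and chromosome 11 had 21 among 1655 (1.27%), where 0.754% of all tested genes were called. These chromosomes also held the most genes that differed from e19 with the same sign, with 11 on chromosome 14, 12 on chromosome 17 and 11 on chromosome 11. At the other end, 3 of 1370 genes were called on chromosome 1 (0.219%) and 4 of 1520 on chromosome 4 (0.263%), and 0 of these 7 differed from e19. On chromosome 7, 10 of 1611 genes were called (0.621%) and all 10 had fallen, as had all 3 on chromosome 1. Of all 242 called genes 159 had fallen. No called gene was among the 82 tested genes outside the chromosomes.

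**Figure D4:**
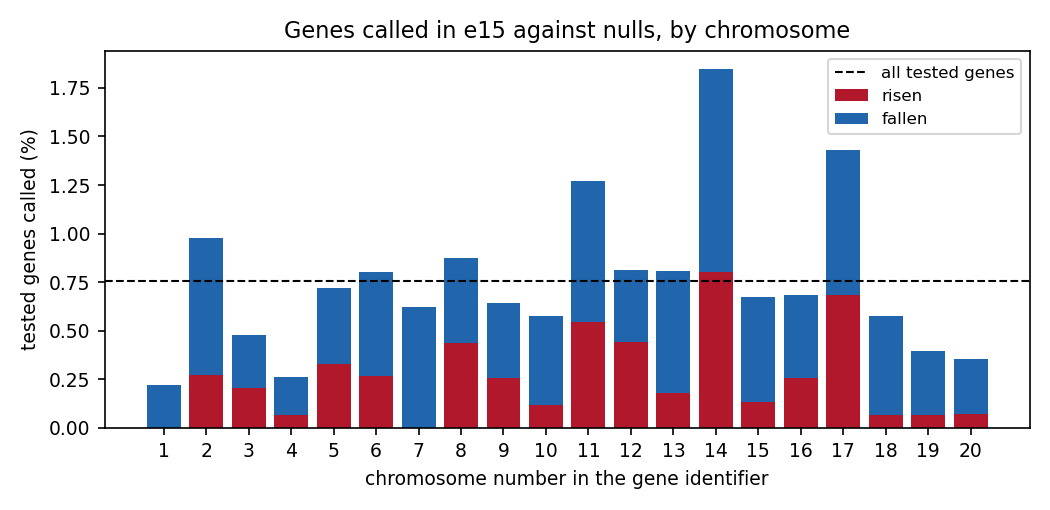
Bars give the percentage of tested genes on each chromosome that rose or fell in e15 against the nulls, and the dashed line the 0.754% of all tested genes. Chromosomes 14 (1.85%), 17 (1.43%) and 11 (1.27%) stand highest and chromosome 1 (0.219%) lowest.

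Many called genes followed each other closely along a chromosome. Chains of at least 3 called genes, each at most 10 places after the one before it in the order of tested genes, numbered 10 on 7 chromosomes. These stretches held 44 of the 242 called genes. Of the 147 tested genes they span, 29.9% were called, a share that the way they were found makes high. Inside the stretches 28 genes rose and 16 fell, and outside 55 rose and 143 fell. The median size of change was 1.38 on the log2 scale inside and 0.61 outside. In the stretches 30 of 44 genes (68.2%) also differed from e19, against 49 of 198 outside (24.7%). Changes of at least 2-fold were 28 of the 44 inside and 50 of the 198 outside. A larger change is easier to call in either comparison, so these shares are not set at like sizes. No test was made of whether these stretches are more than chance would give.

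Risen and fallen genes stood side by side in most stretches. The one with the most genes that differed from e19 covers 26 tested genes of chromosome 17, of which 7 were called, 5 risen and 2 fallen, and all 7 differed from e19. It holds Glyma.17G173200. Its other risen genes reached at most 0.340 CPM in the nulls, and 1.07 to 9.91 CPM in e15. On chromosome 6 a stretch of 5 tested genes held 4 called ones, 2 risen and 2 fallen, Glyma.06G273700 among them, and 3 of these differed from e19. On chromosome 8, 8 of 19 tested genes were called, 7 of them risen, with 3 that differed from e19. On chromosome 11, 4 of 16 genes were called and all 4 differed from e19. Chromosome 14 held 3 stretches with 10 called genes, and 6 of these differed from e19. Genes with whole counts in all libraries numbered 9 of the 44 in stretches and 37 of the 198 outside. A part of shared reads in these stretches was not tested.

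**Figure D5:**
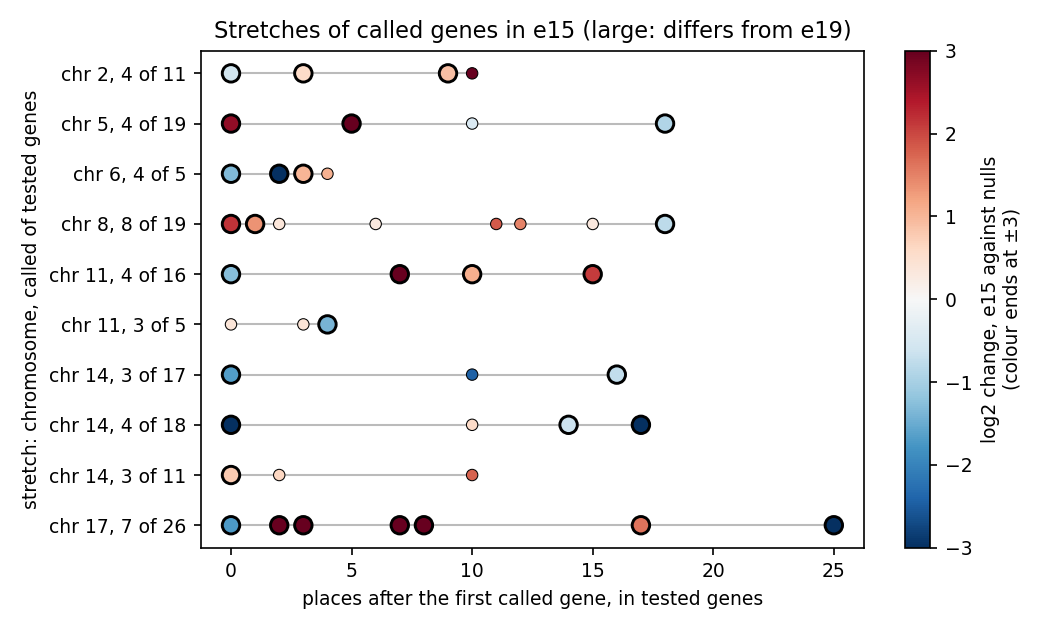
Each row is a stretch of called genes, with the place of each gene counted in tested genes from the first called one, coloured by its log2 change in e15 against the nulls (colours end at 3 and -3). Large symbols mark genes that also differed from e19, which are 7 of 7 on chromosome 17 and 3 of 4 on chromosome 6.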

How the data were processed

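The authors deposited 1 table of estimated counts of reads per gene, with a column per library and no scaling to depth. Its values were treated as estimated because 79.9% of the tested genes held a fractional count in at least 1 library (tolerance 0.0005). Libraries were made from polyadenylated RNA with a stranded kit and read as single 100 bp reads, per the labels' protocols. The sources used here name neither the aligner nor the counting program, nor its strand setting, so overlapping, antisense and near-identical genes are uncertain. No column was left out (0 columns).

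Counts were rounded and filtered with edgeR's filterByExpr on the groups (edgeR 4.0.16, R 4.3.3). Libraries were scaled with TMM factors. Genes were tested with the robust quasi-likelihood test in 1 model of all 12 libraries that held only the group means. Contrasts were e15 against nulls and e15 against e19. Genes were called at a Benjamini-Hochberg rate of 0.05 over the 32115 tested genes. CPM use the TMM-scaled sizes. Standard errors come from the log2 change and its F statistic. A fold against 0 counts uses a floor of 3 counts per library and is a lower bound. Floors and counting intervals cover counting error only. Since no label ties replicates to separate plants, p-values measure only the spread between samples, and that spread may be technical.

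The genes given by identifier were, among called genes that reached a mean of 5 CPM in e15 or the nulls and whose libraries did not overlap (55 risen, 110 fallen), those with the largest change and the highest level. Comparisons, gene lists and rules were chosen with earlier results of these data known. The gene lists rest on descriptions and were not analysed here. Deviations of same-numbered replicates from their group means had correlations of 0.0286, 0.0702 and -0.0687 with nulls 1 to 3. The null mean was that of all 6 nulls, so the difference between the null sets enters these values. They cannot show that pairing is absent. Numbers were not used as pairs in the main fit. Alternatives were DESeq2 (1.42.0), other scaling, no filter, other groupings of the nulls, a replicate block and leaving out each library.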

Additional observations from a re-analysis of the deposited data

Results flagged for a closer look

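The labels give e15 and e19 the same construct, yet edgeR called 96 genes different between these events. Of the 242 genes called against the nulls, 79 stood apart from e19 with the same sign. On the log2 scale e15 minus e19 was 7.48 for Glyma.17G173200 and -7.79 for Glyma.06G273700. Both values depend on the prior count, since 1 of the events held 2 counts or fewer in every library, and are no bounds.

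A single null library far from the others was looked for in 6 sets of null values (total counts, 3 of the genes given by identifier and the summed levels of risen and fallen genes), and 0 sets held one. Nulls that fall into 2 sets of 3, as described above, would not be found this way.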

How the results depend on the processing

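The count of 242 called genes was 168 to 340 in 12 of 19 alternatives. With the nulls as separate sets the number was 888 for their mean, 2676 for nulls 1 to 3 and 376 for nulls 4 to 6. It was 2350 with the replicate block, in which nulls 4 to 6 have no e15 partner. By its design the block thus sets e15 against nulls 1 to 3, and is not a separate check from that fit. Leaving out 1 library gave 82 to 268. The 79 genes that also differed from e19 became 188 with the block, 230, 218 and 178 with the null sets, and 48 to 77 without 1 library. The 96 genes of e15 against e19 became 292 with the block and 145 without the nulls. DESeq2 called 340 genes, among them 239 of the 242, with 94 risen and 246 fallen. With library totals alone 193 genes were called, among them 154 of the 242 (25.9% risen against 34.3%), and the median over all tested genes moved to -0.10 (log2). The 4 genes given by identifier kept their direction in all 19 alternatives, and 3 of them kept their call. Glyma.11G133600 lost it in 7, those named above and the fit that is not robust (adjusted p = 0.0730). The adjusted p of the fit was 0.0603 to 0.308 in these 7, and 1.54e-05 to 0.0492 in the other 12. The cause of these changes was not tested. Repeat calls of the 242 genes were followed in the fits without 1 library of e15 or the nulls and against each null set. In all of these, 28 of the 44 genes in stretches were called again. So were all 8 genes present in e15, 5 of the 6 absent from it, and the abundant genes described on chromosomes 6, 8, 9 and 14. The summed levels and the stretches were not formed anew in the alternatives, and gene lists were not analysed. At under 1 CPM, the depth allowed calls of changes of 1.23 (log2) and more.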
